A study of Mus musculus with 18 samples.

Results

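Secreted antagonists of the Wnt and bone morphogenetic protein (BMP) pathways were followed in mouse dura mater, the outer membrane around the brain. They were 10 genes, Sfrp1, Sfrp2, Sfrp4, Frzb, Wif1, Dkk2, Dkk3, Chrdl1, Grem1 and Nog, of 19937 genes measured. Each was read from the probe set whose only annotated gene symbol was its own, and each of the 10 had 1 such probe set. The family was chosen by earlier results of these data, namely the log2 levels of Sfrp2, lower after stroke, and of Chrdl1, higher in mast cell-deficient dura. The values of the 10 genes for stroke against naive dura, and for deficient dura against the other categories, are therefore given as a description without a test.

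The 18 dura samples came from male WBB6F1 mice aged 17 to 21 weeks, each on an Affymetrix array of its own and in 6 groups of 3. The labels do not say whether a sample is 1 mouse or a pool, so p-values measure the spread between these samples. Engrafted mice had the Kit genotype KitW/W-v and had been given mast cells into a vein 8 to 10 weeks before, deficient mice had the same genotype without a graft, and wild-type mice were Kit+/+. Kit is the receptor that mast cells need, and other cells such as melanocytes use it too, so engrafted and deficient mice share whatever the W and W-v alleles do outside mast cells. In each category, 3 samples followed a stroke, made with a filament that blocked the middle cerebral artery for 30 min, with the dura taken 2 days later, while 3 were from naive mice of the same age. A sham operation was not analysed here, so stroke and naive dura also differ by the surgery. All mice were perfused with buffered saline before the dura was removed, and the source of the grafted mast cells is not given in the sources used here.

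Wnt proteins bind Frizzled receptors together with the co-receptors Lrp5 and Lrp6, and BMPs bind serine/threonine kinase receptors that act through Smad proteins. Secreted antagonists hold either signal back outside the cell. The secreted Frizzled-related proteins Sfrp1, Sfrp2, Sfrp4 and Frzb carry a Frizzled-like domain that binds Wnt, Wif1 also binds Wnt, Dkk2 acts on the co-receptors, and Dkk3 is a relative whose action on Wnt is less settled. Chrdl1 (chordin-like 1), Grem1 (gremlin 1) and Nog (noggin) bind BMPs. Several of these genes are well known in fibroblasts, bone, cartilage and tendon, and signals of both pathways take part in forming the meninges and the skull above them.

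Promoters of 5 of the 10 genes were found in the RefSeq promoter table of build GRCm38.p6, those of Sfrp2, Frzb, Wif1, Dkk2 and Grem1. The 250 bases before the start site are shown for Sfrp2, the Wnt antagonist that differed most with stroke, and for Grem1, a BMP antagonist whose stroke differences pointed in opposite directions in deficient and wild-type dura. The Sfrp2 stretch lies at chr3:83766071-83766320 on the plus strand and the Grem1 stretch at chr2:113758649-113758898 on the minus strand, both written 5′ to 3′. Capitals mark a match to one of the motifs searched on both strands.
Sfrp2: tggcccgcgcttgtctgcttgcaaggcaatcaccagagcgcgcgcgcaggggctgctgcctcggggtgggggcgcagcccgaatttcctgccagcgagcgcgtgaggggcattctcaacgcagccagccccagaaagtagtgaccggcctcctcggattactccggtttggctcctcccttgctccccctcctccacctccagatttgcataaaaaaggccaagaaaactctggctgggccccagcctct
Grem1: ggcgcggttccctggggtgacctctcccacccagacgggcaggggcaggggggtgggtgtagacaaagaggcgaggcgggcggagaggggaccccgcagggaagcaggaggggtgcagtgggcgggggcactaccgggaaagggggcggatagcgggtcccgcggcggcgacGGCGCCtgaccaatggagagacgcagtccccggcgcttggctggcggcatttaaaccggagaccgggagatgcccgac
The motifs were CTTTGAT and CTTTGTT, bound by the TCF/LEF factors of the Wnt pathway, GGCGCC, a GC-rich motif bound by Smad proteins, and TGANTCA, bound by AP-1. They were searched in 300 bases, 250 before and 50 after each start. Of the 5 promoters only that of Grem1 held a match, a single GGCGCC, a motif that 11.9% of 32851 promoters of that length hold. The other motifs occur in 3.73%, 5.85% and 7.81% of promoters, in the order given. The 300 bases had 66% G and C in Sfrp2 and 70.7% in Grem1, against a median of 52.7% over all promoters.

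Every value below is a log2 level as deposited, and a difference of 1 on this scale is a doubling. The lowest level of any of the 10 genes on any array was 6.96 (Dkk2), above the lower quartile of each array's levels (6.09 to 6.23). By mean level, Dkk2 and Wif1 lay at percentile 35.7 of the probe sets tested, and Grem1, Frzb and Nog at percentiles 44.3 to 47.9. Cpa3, a mast cell protease that serves as a check of the categories, lay between 9.47 and 9.79 in stroke engrafted dura, between 5.67 and 5.82 in stroke deficient dura and between 8.39 and 9.29 in stroke wild-type dura. In naive dura Cpa3 lay between 8.76 and 10.90 in engrafted, between 5.66 and 5.82 in deficient and between 9.13 and 9.79 in wild-type mice. On 5 arrays Ttr, which choroid plexus epithelium makes in bulk, was far lower than elsewhere: 9.03 on stroke wild-type array 2, 9.27 on stroke deficient array 2, 10.01 and 9.25 on naive deficient arrays 1 and 3 and 10.17 on naive engrafted array 3, against at least 13.03 on the others. Dura was measured as whole tissue, so fewer cells of a type and less RNA per cell cannot be told apart.

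Sfrp2 (probe set 10492798) had the largest stroke difference of the 10 genes. Its levels were 10.29, 10.60 and 10.45 in stroke engrafted dura, against 11.77, 11.35 and 11.82 in naive engrafted dura. They were 10.60, 10.78 and 10.52 in stroke deficient dura, against 11.87, 11.60 and 12.09 in naive deficient dura, and 9.99, 9.88 and 9.51 in stroke wild-type dura, against 11.53, 11.58 and 11.12 in naive wild-type dura. Every stroke array lay below every naive array, with wild-type stroke arrays lowest of all. The differences were -1.20 ± 0.17 in engrafted, -1.22 ± 0.17 in deficient and -1.61 ± 0.17 in wild-type dura (log2, SE, n = 3 against 3), and -1.34 ± 0.10 averaged over the 3 categories. Linear levels were thus 3.06-fold lower after stroke in wild type and 2.33-fold lower in deficient dura. Without the 5 arrays low in Ttr the averaged difference was -1.27, in a fit that keeps 1 naive deficient array.

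Sfrp4 (probe set 10403834), a relative of Sfrp2 with the same Wnt-binding domain, went the other way. It lay at 12.45, 12.68 and 12.65 in stroke engrafted dura, against 11.62, 11.69 and 11.78 in naive engrafted dura. Deficient dura had 12.46, 12.33 and 12.14 after stroke, against 11.55, 11.54 and 11.76 when naive, and wild-type dura had 12.74, 12.84 and 12.66 after stroke, against 11.89, 11.78 and 11.55 when naive. All stroke arrays were above all naive arrays. The stroke differences were 0.89 ± 0.10 in engrafted, 0.70 ± 0.10 in deficient and 1.00 ± 0.10 in wild-type dura, a 2.01-fold higher linear level in wild type, and 0.87 ± 0.06 on average. Over the 18 arrays Sfrp2 and Sfrp4 levels ran opposite (Pearson r = -0.89), while their deviations from the group means ran together (r = 0.65), a description over arrays that share their groups. Within a group, then, an array high in one gene tended to be high in the other, and it was between the groups that they parted.

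**Figure D1:**
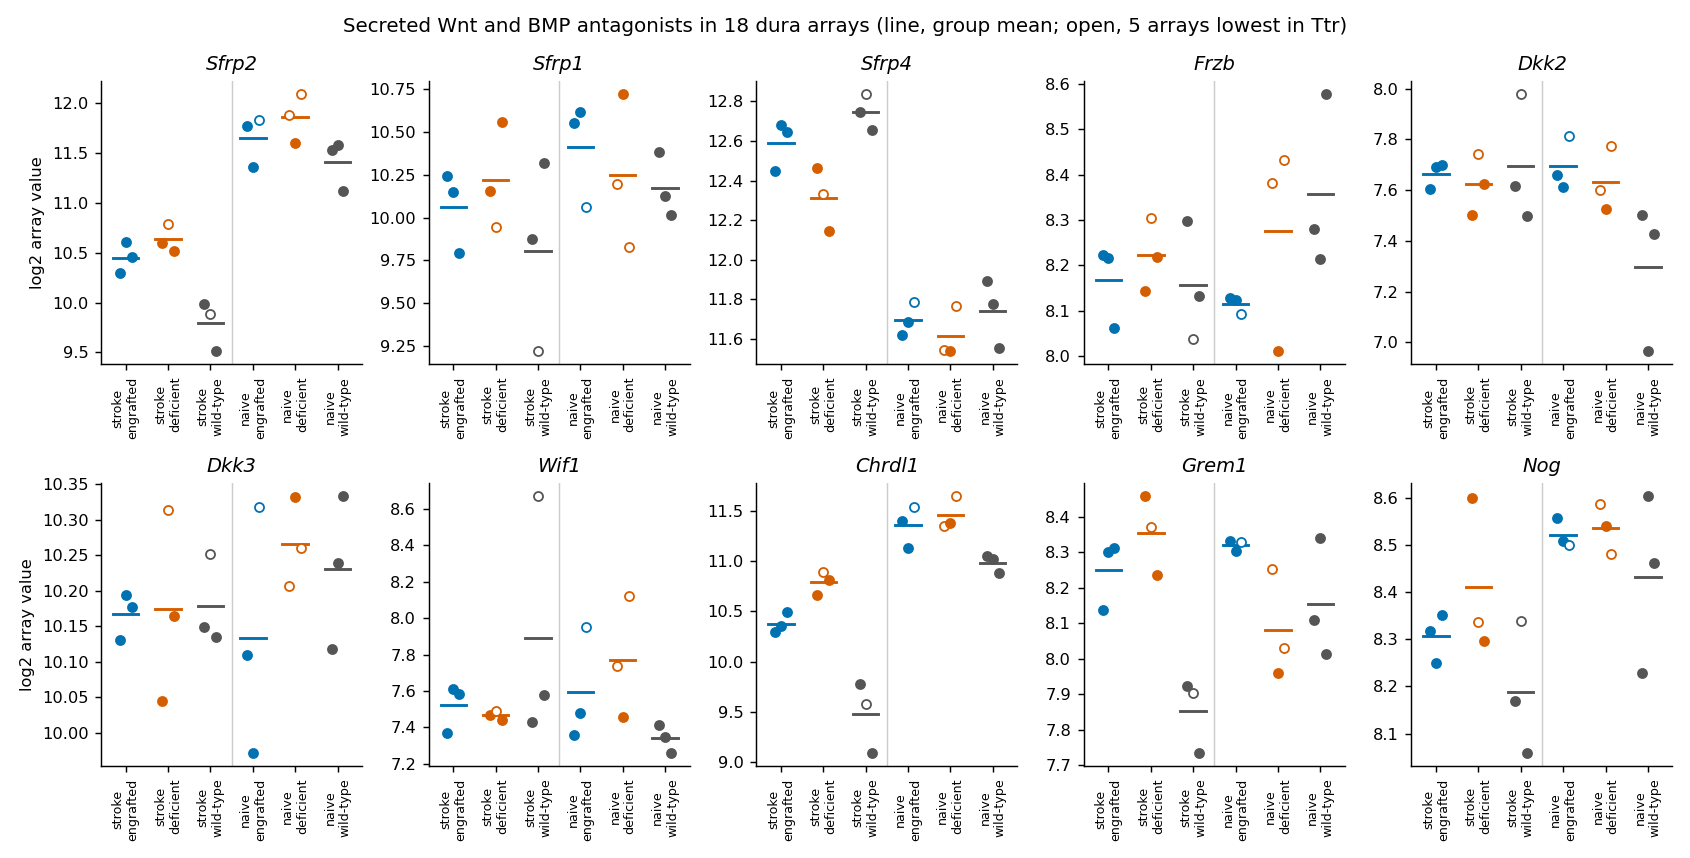
Log2 level of each of the 10 antagonists on the 18 arrays, 1 panel a gene with its own vertical range; points are arrays, lines are group means, and open points are the 5 arrays lowest in Ttr. Sfrp2 and Chrdl1 sit lower and Sfrp4 sits higher in the stroke groups of each category, with Sfrp2 between 9.51 and 10.78 on stroke arrays and between 11.12 and 12.09 on naive arrays.

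Frzb, Dkk3 and Dkk2 had smaller stroke differences than Sfrp2 and Sfrp4. Frzb, first found as a cartilage protein, stayed between 8.01 and 8.58 on all arrays, with stroke differences of 0.05 ± 0.11 in engrafted, -0.05 ± 0.11 in deficient and -0.20 ± 0.11 in wild-type dura. Without the arrays low in Ttr the difference in deficient dura was 0.17. Dkk3 was the steadiest of the 10, with levels of 9.97 to 10.33 and stroke differences between -0.09 and 0.03 in the 3 categories (-0.23 in deficient dura without the arrays low in Ttr). Dkk2 lay between 6.96 and 7.98 and differed by -0.03 ± 0.14 in engrafted, -0.01 ± 0.14 in deficient and 0.40 ± 0.14 in wild-type dura. Naive wild-type array 2 read 6.96, where the other 2 read 7.50 and 7.43, and the wild-type difference was 0.23 without it and 0.26 without stroke wild-type array 2, which is low in Ttr.

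Sfrp1 and Wif1 varied within groups, and did so along with Ttr. Sfrp1 had 10.24, 10.15 and 9.79 in stroke engrafted, 10.16, 9.95 and 10.56 in stroke deficient and 9.88, 9.22 and 10.32 in stroke wild-type dura. Naive engrafted dura had 10.55, 10.61 and 10.06, naive deficient dura 10.19, 10.72 and 9.83 and naive wild-type dura 10.38, 10.12 and 10.02. In every group that held an array low in Ttr, such arrays had the lowest Sfrp1. Wif1 had 7.43, 8.67 and 7.58 in stroke wild-type dura, against 7.42, 7.35 and 7.26 in naive wild-type dura, and its highest arrays in naive deficient (8.12) and naive engrafted dura (7.95) were again arrays low in Ttr. As deviations from the group means over 18 arrays, Sfrp1 correlated with Ttr at r = 0.86 and Wif1 at r = -0.80, against -0.63 for Dkk2, -0.54 for Sfrp2, -0.53 for Dkk3, -0.45 for Chrdl1, -0.40 for Sfrp4, -0.30 for Grem1, -0.22 for Frzb and -0.11 for Nog. The Wif1 difference in wild type, 0.55 ± 0.25, was 0.16 without stroke wild-type array 2. The Sfrp1 difference between naive deficient and naive wild-type dura, 0.07 ± 0.26, was 0.55 without the arrays low in Ttr, which leaves naive deficient dura with 1 array. The part of choroid plexus tissue in these values was not tested.

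**Figure D2:**
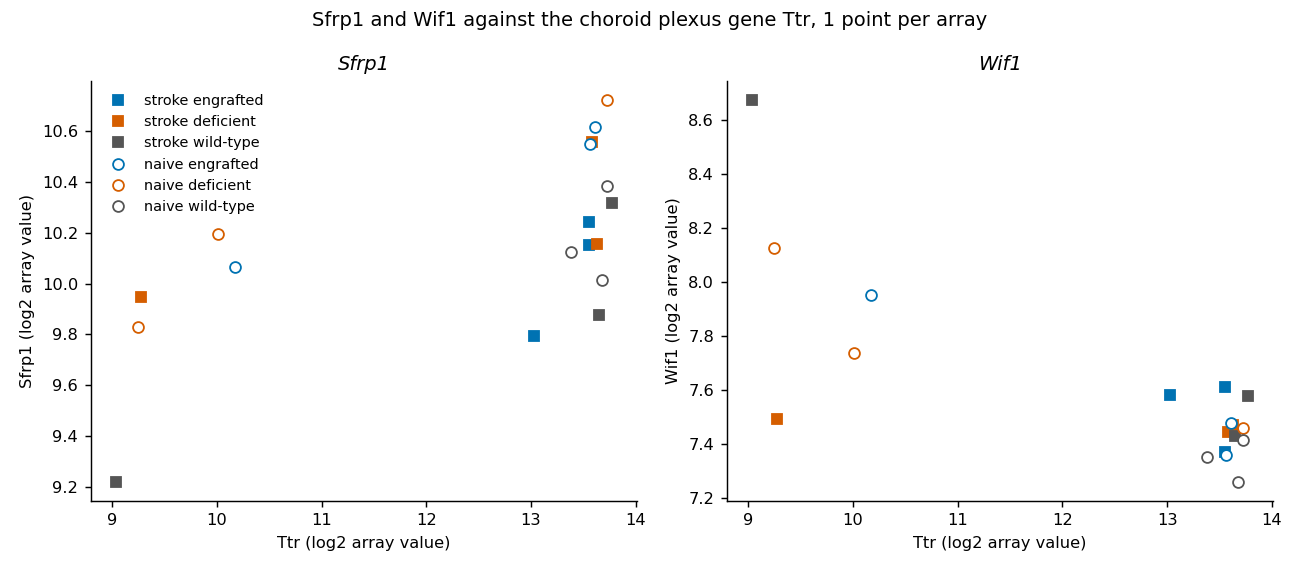
Log2 level of Ttr (horizontal) against log2 level of Sfrp1 (left) and Wif1 (right), 1 point an array, with filled squares for stroke and open circles for naive dura. The 5 arrays with Ttr at 10.17 or less include the lowest Sfrp1 level (9.22) and the highest Wif1 level (8.67).

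Among the BMP antagonists, Chrdl1 (probe set 10607124) had the largest stroke difference. It read 10.29, 10.35 and 10.49 in stroke engrafted dura, against 11.40, 11.12 and 11.54 in naive engrafted dura, and 10.66, 10.89 and 10.81 in stroke deficient dura, against 11.35, 11.37 and 11.65 in naive deficient dura. In wild-type dura it read 9.78, 9.58 and 9.09 after stroke, against 11.05, 11.02 and 10.88 when naive. Within each category stroke and naive arrays were apart. The differences were -0.98 ± 0.15 in engrafted, -0.67 ± 0.15 in deficient and -1.50 ± 0.15 in wild-type dura, and -1.05 ± 0.08 averaged, which in linear terms is a 1.59-fold lower level in deficient and a 2.83-fold lower level in wild-type dura. Without stroke wild-type array 3 the wild-type difference was -1.31. Nog was slightly lower after stroke in every category, by -0.22 ± 0.10 in engrafted, -0.12 ± 0.10 in deficient and -0.24 ± 0.10 in wild-type dura. Its stroke arrays (8.06 to 8.60) and naive arrays (8.23 to 8.60) overlapped.

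Grem1 (probe set 10485948) had stroke differences of unlike sign between categories. It had 8.14, 8.30 and 8.31 in stroke engrafted dura, against 8.33, 8.30 and 8.33 in naive engrafted dura. Stroke deficient dura had 8.46, 8.37 and 8.23, against 8.25, 7.96 and 8.03 in naive deficient dura, and stroke wild-type dura had 7.92, 7.90 and 7.73, against 8.11, 8.34 and 8.01 in naive wild-type dura. The wild-type groups were apart, with stroke lower, and the deficient groups overlapped slightly, with stroke mostly higher. The differences were -0.07 ± 0.10 in engrafted, 0.27 ± 0.10 in deficient and -0.30 ± 0.10 in wild-type dura, and -0.03 ± 0.06 on average.

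Counted by an adjusted p under 0.05 in limma, 1 of the 10 genes was higher (Sfrp4) and 3 lower (Sfrp2, Chrdl1, Nog) in the averaged stroke comparison, where 13.5% of 21640 probe sets passed, 8.05% as higher and 5.42% as lower. Nog was past the threshold in 7 of the 18 fits that leave out 1 array, and not without the arrays low in Ttr. In engrafted dura, where 1.11% passed, 3 of the 10 did (Sfrp2, Sfrp4, Chrdl1), in deficient dura, where 0.25% passed, 2 did (Sfrp2, Sfrp4), and in wild-type dura, where 10.9% passed, 3 did (Sfrp2, Sfrp4, Chrdl1). The genes were chosen with this comparison in view, so nothing is read from these counts. In deficient dura the count was 1 without stroke deficient array 1 and 0 without the arrays low in Ttr or with only the compared groups, and in wild-type dura it was 5 without naive wild-type array 1. Of the other 6 genes, Sfrp1, Frzb, Dkk2, Dkk3, Wif1 and Grem1, 0 passed by limma in any of these 4 comparisons, where 7 of the 10 had an unadjusted p under 0.05 in wild type and 4 in each of the other comparisons.

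**Figure D3:**
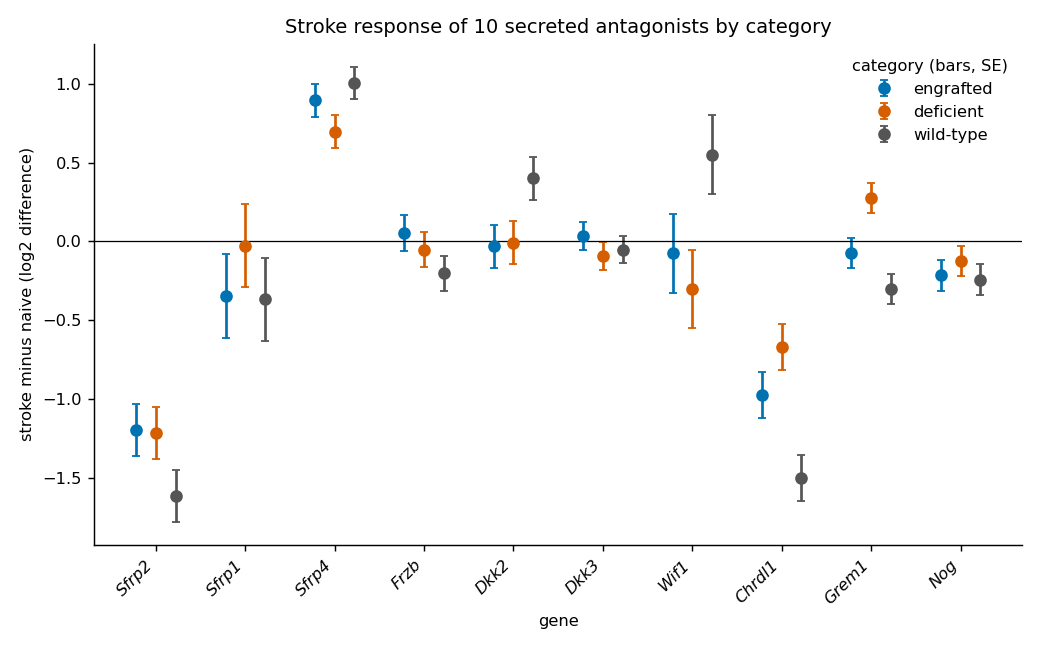
Stroke minus naive difference (log2) of the 10 antagonists in engrafted, deficient and wild-type dura; points are differences and bars are SE, n = 3 against 3. Sfrp2 lies between -1.61 and -1.20 and Sfrp4 between 0.70 and 1.00, and Chrdl1 spans -1.50 in wild type to -0.67 in deficient dura.

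Whether the size of the stroke difference depends on the category was asked by interaction terms, which the choice of genes did not use directly, although they draw on the same arrays. By limma, 0 of the 10 genes passed an adjusted p of 0.05 in any of the 3. For deficient minus wild type, where 0.351% of probe sets passed, 3 of the 10 had an unadjusted p under 0.05. They were Grem1 (0.58 ± 0.14, adjusted p = 0.109), Chrdl1 (0.83 ± 0.21, adjusted p = 0.144) and Wif1 (-0.85 ± 0.35, adjusted p = 0.565), the last of which was -0.46 without stroke wild-type array 2 and -0.16 without the arrays low in Ttr. With array weights, Chrdl1 passed (0.88, adjusted p = 0.0331). For engrafted minus wild type, where 0.106% passed, Chrdl1 had 0.53 ± 0.21 (adjusted p = 0.303) and Dkk2 -0.43 ± 0.19 (adjusted p = 0.356), the 2 with an unadjusted p under 0.05. The Dkk2 value was -0.26 without naive wild-type array 2 and -0.23 without the arrays low in Ttr. For engrafted minus deficient, where 0.00462% passed, Grem1 alone had one, at -0.35 ± 0.14 (adjusted p = 0.51). For Sfrp2 the interactions were 0.40 ± 0.23 for deficient minus wild type, 0.42 ± 0.23 for engrafted minus wild type and 0.02 ± 0.23 for engrafted minus deficient. With an SE of 0.23 these values do not show the Sfrp2 responses to be alike.

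The categories were then compared at a given condition. After stroke, Chrdl1 separated all 3, with 10.29 to 10.49 in engrafted, 10.66 to 10.89 in deficient and 9.09 to 9.78 in wild-type dura. The deficient minus wild-type difference was 1.31 ± 0.15 after stroke and 0.47 ± 0.15 in naive dura, and 0.89 ± 0.10 averaged over both. Without stroke wild-type array 3 the difference after stroke was 1.11. Sfrp2 was also higher in deficient than in wild-type dura, by 0.84 ± 0.17 after stroke, with no overlap, and by 0.44 ± 0.17 when naive, where naive deficient arrays began at 11.60 and naive wild-type arrays ended at 11.58. Grem1 was higher by 0.50 ± 0.10 and Sfrp4 lower by -0.43 ± 0.10 after stroke, and in naive dura these 2 differed by -0.07 ± 0.10 and -0.13 ± 0.10. Without the arrays low in Ttr, naive deficient minus wild-type differences were 0.19 for Sfrp2, -0.20 for Grem1 and -0.35 for Frzb, where Frzb had -0.08 with all arrays. Counted as above, 4 of the 10 (Chrdl1, Sfrp2, Grem1, Sfrp4) passed after stroke, where 2.61% of probe sets did, 0 in naive dura, where 0.0185% did and 3 of the 10 had an unadjusted p under 0.05 in limma, and 2 (Chrdl1, Sfrp2) in the average, where 1.11% did. The choice of genes used this comparison, so the counts are given without a reading. Of the 18 fits that leave out 1 array, Chrdl1 passed after stroke in 18, Grem1 in 17, Sfrp2 in 16 and Sfrp4 in 12. The count after stroke was 1 without stroke wild-type array 3, 1 without the arrays low in Ttr, 2 without stroke deficient array 2 and 2 with only the compared groups. The averaged count was 1 without stroke deficient array 2, 1 without the arrays low in Ttr and 4 with array weights.

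By group mean after stroke, engrafted dura lay between deficient and wild-type dura in every gene but Dkk3. It was closer to deficient dura in Chrdl1, Sfrp2, Grem1, Sfrp1, Nog and Wif1, and to wild-type dura in Sfrp4, Frzb and Dkk2. Some of these orders rest on gaps below their SE. Engrafted minus deficient was -0.05 ± 0.11 for Frzb, 0.04 ± 0.14 for Dkk2 and 0.05 ± 0.25 for Wif1. Without stroke wild-type array 2, Wif1 in engrafted dura lay above both other categories, by 0.02 over wild type. Engrafted minus deficient differences after stroke were -0.41 ± 0.15 for Chrdl1, -0.18 ± 0.17 for Sfrp2, -0.11 ± 0.10 for Grem1 and 0.28 ± 0.10 for Sfrp4. Averaged over naive and stroke they were -0.26 ± 0.10 for Chrdl1 and -0.19 ± 0.12 for Sfrp2. By limma 0 of the 10 genes passed after stroke, where 0.0277% of probe sets did, 0 in naive dura (0.0185%) and 0 on average (0.0323%), with 2, 1 and 2 of the 10 at an unadjusted p under 0.05.

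Engrafted against wild-type dura is the category comparison that did not serve in choosing the genes, though its wild-type arrays are those set against deficient dura above. Its p-values are therefore not independent of that choice. Chrdl1 was higher in engrafted dura after stroke, by 0.90 ± 0.15 (limma adjusted p = 0.0115), and averaged over naive and stroke, by 0.63 ± 0.10 (adjusted p = 0.0214), with every engrafted array above every wild-type array in both conditions. It was 1 of the 10 genes to pass in each, where 0.411% and 0.287% of all probe sets passed. In naive dura 0% of probe sets passed limma's test and 0 of the 10 genes, of which 3 had an unadjusted p under 0.05, Chrdl1 among them with 0.37 ± 0.15 (adjusted p = 0.201). Sfrp2 had 0.66 ± 0.17 after stroke (adjusted p = 0.105) and 0.45 ± 0.12 on average (adjusted p = 0.13). Grem1 had 0.40 ± 0.10 after stroke (adjusted p = 0.0948) and 0.28 ± 0.07 on average (adjusted p = 0.101), and the other 7 genes lay between -0.12 and 0.25 on average. Leaving out naive engrafted array 3, stroke engrafted array 3 or naive wild-type array 3 ended the averaged Chrdl1 call (adjusted p = 0.0732, 0.0616 and 0.0591). The call after stroke was lost without stroke engrafted array 3 (adjusted p = 0.068). Both were lost without the arrays low in Ttr (adjusted p = 0.122 and 0.0603), with choroid plexus and neuron levels as covariates (0.0962 and 0.187) and with only the compared groups (0.0543 and 0.188), and the averaged call also with a replicate block (0.0544). Over these fits, in which a call was lost, the averaged difference was 0.57 or more and that after stroke 0.83 or more. Over all 18 fits that leave out 1 array, the lowest values were 0.54 averaged and 0.70 after stroke.

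**Figure D4:**
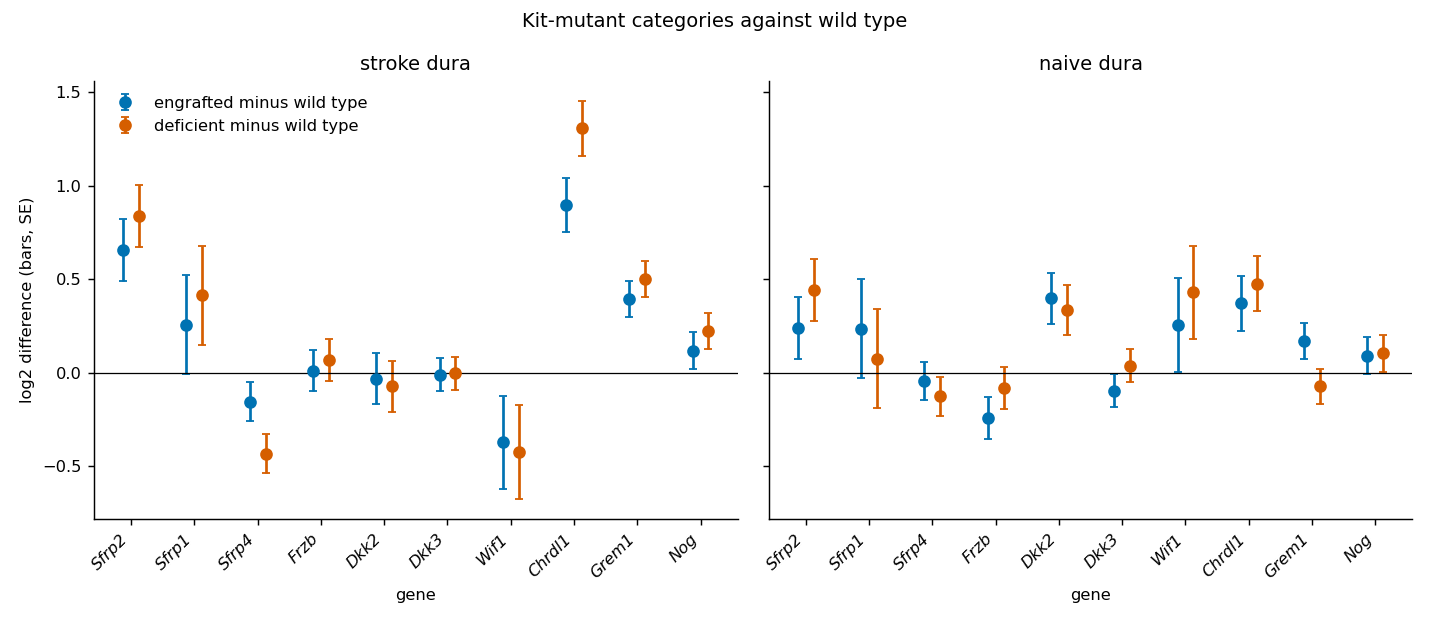
Engrafted minus wild-type and deficient minus wild-type differences (log2, bars are SE, n = 3 against 3) of the 10 antagonists in stroke dura (left) and naive dura (right). After stroke Chrdl1 lies highest in both, at 0.90 for engrafted and 1.31 for deficient dura.

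The genes whose levels over the 18 arrays were most like those of Sfrp2 were Abi3bp (Pearson r = 0.98), Tnmd (0.97), Comp (0.97), Ogn (0.96) and Matn4 (0.96). Those most like Chrdl1 were Cpxm2 (0.99), Fmod (0.99), Abi3bp (0.98), Comp (0.98) and Tnmd (0.96), and Sfrp2 and Chrdl1 correlated with each other at 0.95, or 0.80 as deviations from the group means. Tnmd (tenomodulin) is a tendon membrane protein, Comp and Matn4 are cartilage matrix proteins, and Fmod (fibromodulin) and Ogn (osteoglycin) are small proteoglycans of collagen fibrils. Like the pair they resemble, these genes were lower after stroke, from -1.46 ± 0.11 for Comp to -0.41 ± 0.04 for Ogn on average. They were also higher in deficient than in wild-type stroke dura, from 0.31 ± 0.07 for Ogn to 1.41 ± 0.18 for Comp. Since they were picked for likeness over the same arrays, these values are a description, and they say nothing of shared control.

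Among 10 tendon and cartilage markers, all measured, are Fmod, Tnmd and Comp, picked above for likeness to Sfrp2 or Chrdl1 over the same arrays. The counts and levels of the list are therefore a description, not independent of that choice. Some of these 10 markers passed in the same comparisons as Sfrp2 or Chrdl1. In the averaged stroke comparison 0 were higher and 5 lower, where 5.42% of all probe sets were lower, with a median of -0.21 against 0.01 over all probe sets. In stroke dura 4 were higher and 0 lower in deficient against wild-type mice (median 0.26 against 0.02, where 2.61% of probe sets passed), and 2 higher and 0 lower in engrafted against wild-type mice (median 0.12 against -0.02, where 0.411% passed). The list's mean level ran from 8.78 to 8.89 in stroke engrafted, 9.004 to 9.13 in stroke deficient and 8.35 to 8.66 in stroke wild-type dura, and from 9.32 to 9.49 in naive engrafted, 9.30 to 9.53 in naive deficient and 9.10 to 9.24 in naive wild-type dura. The 10 fibroblast markers moved less, with 1 higher and 1 lower after stroke on average and group means between 10.34 and 10.62. Of 9 neuron markers, 5 were lower after stroke on average and 5 in wild type, and their mean level was 9.29 to 9.73 in stroke wild-type against 10.16 to 10.63 in naive wild-type dura. In engrafted dura the neuron mean was 10.00 to 10.63 after stroke, against 10.31 to 10.53 when naive, and in deficient dura 9.78 to 10.42 after stroke, against 10.08 to 10.92 when naive, and 0 of the 9 passed limma's test in either (0 at an unadjusted p under 0.05). With choroid plexus and neuron levels as covariates the Sfrp2 difference in wild type was -1.90 and that of Chrdl1 was -1.49. The part of tendon, cartilage or fibroblast tissue in the values of Sfrp2 and Chrdl1 was not tested.

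Other genes of the 2 pathways were read from lists of 113 genes, 111 of them measured. Averaged over the categories, 17 rose and 6 fell after stroke, which is 20.7% against 13.5% of all probe sets, with a median difference of 0.03 against 0.01. Without the arrays low in Ttr 15 passed. Among 20 other secreted antagonists 6 rose and 2 fell: Fstl1, a follistatin-like glycoprotein, rose by 0.32 ± 0.06 (limma adjusted p = 0.00144), Vwc2, a BMP inhibitor, by 0.38 ± 0.08 (adjusted p = 0.00424) and Fstl3, which binds activins, by 0.24 ± 0.05 (adjusted p = 0.00332). Chrdl2, the relative of Chrdl1, fell by 0.32 ± 0.07 (adjusted p = 0.00372, or 0.0795 without the arrays low in Ttr). Fstl3 did not pass with choroid plexus and neuron levels as covariates. The Fstl1 difference was 0.14 ± 0.10 in engrafted, 0.13 ± 0.10 in deficient and 0.68 ± 0.10 in wild-type dura (limma adjusted p = 0.657, 0.54 and 0.000375).

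Of 19 Wnt ligands 5 passed as higher and 0 as lower. Wnt9a rose by 0.69 ± 0.08 (limma adjusted p = 7.31e-05), Wnt2 by 0.54 ± 0.07 (adjusted p = 0.000164), Wnt2b by 0.33 ± 0.08 (adjusted p = 0.0093) and Wnt7b by 0.21 ± 0.05 (adjusted p = 0.00755). In wild type alone the Wnt2 difference was larger than this average, at 0.85 to 1.01 over the fits that leave out 1 array. With choroid plexus and neuron levels as covariates, Wnt2b did not pass. Wnt2b and Wnt7b did not pass without the arrays low in Ttr (adjusted p = 0.0698 and 0.0682). Wnt9a had 9.34, 9.76 and 9.48 in stroke engrafted, against 8.76, 9.07 and 9.14 in naive engrafted dura. It had 9.76, 9.21 and 9.29 in stroke deficient, against 8.81, 8.88 and 8.67 in naive deficient dura, and 9.58, 9.71 and 9.51 in stroke wild-type, against 8.67, 8.90 and 8.57 in naive wild-type dura. Stroke and naive arrays of Wnt9a did not overlap within any of the 3 categories. Of 22 receptors and co-receptors 3 rose and 3 fell, among them the kinase-like receptor Ror1 (0.30 ± 0.06, adjusted p = 0.00197) and the co-receptor Lrp6 (-0.18 ± 0.05, adjusted p = 0.0243, or 0.127 without the arrays low in Ttr), and of 4 R-spondins, which strengthen Wnt signals, 0 passed limma's test (1 at an unadjusted p under 0.05). Among the Frizzled receptors, Fzd8 fell (-0.35 ± 0.08, limma adjusted p = 0.00988) and Fzd10 rose (0.17 ± 0.05, adjusted p = 0.023). Of 9 genes known as Wnt targets, Ccnd1 (cyclin D1) passed, at 0.47 ± 0.07 (limma adjusted p = 0.000295), with 0.44 ± 0.12 in engrafted, 0.17 ± 0.12 in deficient and 0.80 ± 0.12 in wild-type dura (adjusted p = 0.1, 0.53 and 0.000478).

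Of 15 BMP ligands 0 passed limma's test after stroke (2 at an unadjusted p under 0.05), and of 11 receptors Acvr1 fell by 0.17 ± 0.05 (adjusted p = 0.049). Of 11 BMP target genes Id3 rose by 0.26 ± 0.05 (limma adjusted p = 0.00372) and the inhibitory Smad6 by 0.16 ± 0.05 (adjusted p = 0.03). Of the 18 fits that leave out 1 array, Acvr1 passed in 4 and Smad6 in 11, and neither passed without the arrays low in Ttr (adjusted p = 0.22 and 0.194). With choroid plexus and neuron levels as covariates, Id3 and Smad6 did not pass. The lists were read beside the 13.5% given above, and a difference between lists was not tested.

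Between categories few pathway genes passed. Of the 111, Msx2, a BMP target, was higher by 0.23 ± 0.05 in deficient against wild-type dura on average (limma adjusted p = 0.0498) and Wnt2 lower by -0.43 ± 0.09 (adjusted p = 0.0301). That is 2 of 111, where 1.11% of probe sets passed, and Msx2 stayed past the threshold in 3 of the 18 fits that leave out 1 array and Wnt2 in 11. In stroke dura, Msx2 was higher by 0.34 ± 0.07 (limma adjusted p = 0.0229) in deficient mice, and 4 were lower, Myc (-0.95 ± 0.14, adjusted p = 0.00182), Wnt2 (-0.71 ± 0.13, adjusted p = 0.00621), Ccnd1 (-0.60 ± 0.12, adjusted p = 0.0117) and Fstl1 (-0.44 ± 0.10, adjusted p = 0.0247). These are 5 of 111, or 4.5%, where 2.61% of all probe sets passed. Of the 18 fits that leave out 1 array, Myc and Wnt2 passed in 18, Ccnd1 in 15, Msx2 in 14 and Fstl1 in 13. Without the arrays low in Ttr only Myc of the 5 passed. Engrafted against wild-type dura had 0 of 111 past limma's threshold on average, where 0.287% of all probe sets passed. At an unadjusted p under 0.05 there were 21, or 18.9%, against 17.3% of all probe sets. In that comparison Msx2 had 0.15 ± 0.05, Wnt2 -0.28 ± 0.09 and Myc -0.31 ± 0.10 (limma adjusted p = 0.206, 0.178 and 0.188). Their signs were those seen in deficient dura. Engrafted minus deficient, Msx2 had -0.08 ± 0.05 on average, which did not pass.

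**Figure D5:**
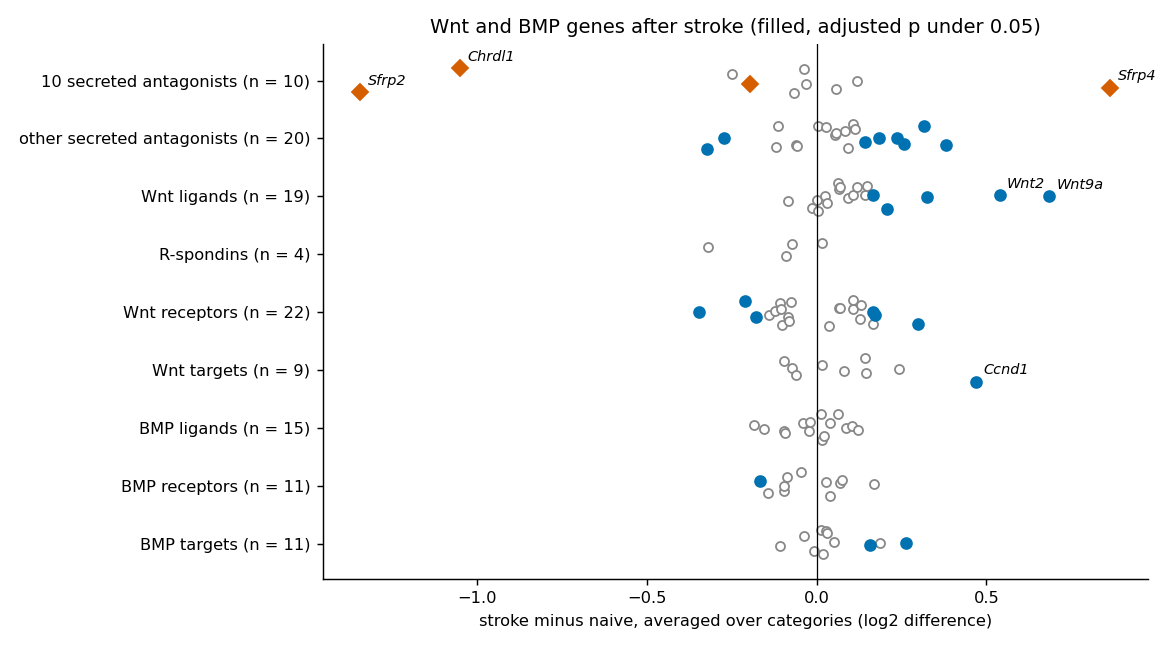
Averaged stroke minus naive difference (log2) of the antagonists and of the other Wnt and BMP genes by list, 1 point a gene, with filled points past an adjusted p of 0.05. Of the 19 Wnt ligands, 17 lie above 0 (median 0.09) and the BMP ligands close around it (median 0.01), while the antagonists span -1.34 for Sfrp2 to 0.87 for Sfrp4.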

How the data were processed

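RNA of 18 dura samples was measured on 1 Affymetrix array each, and the authors deposited 1 log2 value for each probe set and array. The submitters' processing notes name RMA, affy and R 3.0.0 without their roles. No batch or scan date is given in the sources used here. Array medians were 7.77 to 7.91, and arrays of a group correlated at r of 0.984 to 0.997. Of 34760 probe sets, 21640 had exactly 1 gene symbol in the platform annotation and were tested; 1321 with several symbols and 11799 not listed were left out. No value was rescaled.

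The 6 group means were estimated in 1 limma fit over the 18 arrays (limma 3.58.1, R 4.3.3, 12 residual and 3.41 prior degrees of freedom), for 16 comparisons, with Benjamini-Hochberg adjustment over the 21640 within each. The threshold was an adjusted p of 0.05. Precision is limited by how few arrays there are, with a median SE of 0.10 for 3 against 3 arrays, 0.06 for averaged stroke and 0.14 for an interaction. The fit was tested on simulated data. Promoter windows came from RefSeq, GRCm38.p6. Figures were drawn with matplotlib 3.10.9 (Python 3.11.15, pandas 2.3.3).

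The 10 genes and all lists were chosen with earlier results of these data known. Genes outside the 10 were drawn by rule: per pathway list, up to 4 with the smallest p in averaged stroke and 2 in each averaged category comparison, the 5 most like Sfrp2 or Chrdl1, and Cpa3 and Ttr as checks. Not every gene so drawn is named in the text. Replicate numbers did not pair the samples (median correlations -0.05, -0.13 and -0.01). Alternatives were leaving out each array, a second quantile normalization, a filter on dim probe sets, a trended and robust variance, array weights, a replicate block, tissue covariates, leaving out the 5 arrays lowest in Ttr, and only the compared groups.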

Additional observations from a re-analysis of the deposited data

Results flagged for a closer look

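Myc, a gene that Wnt signals are known to raise in other tissues, had a stroke response that differed between deficient and wild-type dura by -1.11 ± 0.20 on the log2 scale (limma adjusted p = 0.0226 for the interaction), which is what set it apart among the pathway genes. It read 9.03, 9.09 and 8.83 in stroke deficient dura, against 9.33, 9.06 and 9.51 in naive deficient dura. In wild type it read 9.93, 9.88 and 10.00 after stroke, against 9.06, 9.03 and 9.32 when naive. The stroke differences were -0.32 ± 0.14 in deficient dura (adjusted p = 0.355) and 0.80 ± 0.14 in wild-type dura (adjusted p = 0.00207), and wild-type stroke arrays were the highest of these 4 groups. The Myc stroke response of engrafted dura is not given here. Averaged over naive and stroke, Myc differed from wild type by -0.39 ± 0.10 in deficient and -0.31 ± 0.10 in engrafted dura (limma adjusted p = 0.074 and 0.188). These values do not show the Myc difference to be particular to deficient dura. The interaction was no longer past the threshold in 11 alternatives. It was past the threshold in 10 of the 18 fits that leave out 1 array, with adjusted p up to 0.0822 in the others. The 11 alternatives are those other fits, the replicate block, the tissue covariates and the fit without the 5 arrays low in Ttr (-0.96). The direction of the interaction held in each of the 11.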

How the results depend on the processing

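No result reversed its direction among those that passed the threshold. For the 10 antagonists, the averaged engrafted against wild-type count of 1 became 2 with array weights (Chrdl1 and Grem1) and 0 with a replicate block, with tissue covariates, without the 5 arrays low in Ttr and with only the compared groups; leaving out single arrays gave 0 to 1. The same count after stroke became 0 with tissue covariates, without the arrays low in Ttr and with only the compared groups, and 0 to 1 without single arrays. The interaction count for deficient minus wild type became 1 with array weights. For the other pathway genes, the averaged stroke count of 23 became 15 without the arrays low in Ttr. The averaged deficient against wild-type count of 2 became 15 with array weights, 0 with a replicate block, 0 with tissue covariates, 1 without the arrays low in Ttr, 1 with only the compared groups and 0 to 4 without single arrays. The engrafted against wild-type count of 0 became 1 with trended and robust variance, 1 with array weights and 0 to 1 without single arrays. The cause was not tested, except that the fits without arrays or with only the compared groups hold fewer arrays. The share of all probe sets that passed in each of these fits is not given here. A change in a count is therefore not read as a result about the antagonists or the pathway genes. The fit without the arrays low in Ttr leaves naive deficient dura with 1 array, assumed to vary like the other groups. The replicate block changed no other count of the antagonists. In naive engrafted against wild-type dura, a second quantile normalization gave 3 higher and 1 lower probe sets, where 0 passed before.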
